A study of Ovis aries with 2 samples.

Results

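The voltage-gated sodium channel genes of the brain were followed through single-nucleus RNA sequencing of adult sheep cerebral cortex. The set was SCN1A, SCN2A, SCN3A, SCN8A and SCN9A, matched by gene symbol, and 4 of these 5 symbols were found among the 12652 distinct symbols of the matrices. SCN3A was not analysed here. Each gene encodes a pore-forming alpha subunit.

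The nuclei came from wild-type female Rambouillet sheep aged between 18 and 36 months by the labels, and the series description speaks of a single animal. There was no treatment of the living animal, and both libraries carry the same batch label. In the library titled pre-processed, dissected cortex went straight to nuclei isolation. In the library titled post-processed, debris and red blood cells were removed first. On this removal both treatment labels have the same wording, against the title of the second library, so comparisons between libraries take their direction from the titles. With 1 library per condition, no test between conditions was possible and no p-value is given. All intervals below are exact 95% intervals and cover counting error only.

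A voltage-gated sodium channel opens when the membrane is depolarised and lets sodium into the cell, which drives the upstroke of the action potential. The alpha subunits are gathered by ankyrin and spectrin scaffolds at the axon initial segment and at nodes of Ranvier. In mouse cortex the SCN1A product is best known from inhibitory interneurons, the SCN2A product from excitatory neurons, the SCN8A product from mature axons, and the SCN9A product from peripheral sensory neurons. By RefSeq, in the sheep assembly ARS-UI_Ramb_v3.0, SCN9A and SCN1A are adjacent coding genes on sheep chromosome 2, SCN2A lies further along the same cluster beside CSRNP3, and SCN8A lies on chromosome 3.

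The pre-processed library held 2125 nuclei with a median of 2524 unique molecular identifiers (UMIs, each counting 1 captured RNA molecule) over the listed genes. The post-processed library held 905 barcodes, of which the 494 with at least 100 detected genes were kept, at a median of 667.5 UMIs. The libraries shared 0 barcodes. Clustering made without the sodium channel genes gave 865 excitatory-like, 191 interneuron-like, 360 astrocyte-like, 109 oligodendrocyte precursor-like, 180 oligodendrocyte-like and 85 microglia-like nuclei in the pre-processed library. A further 327 pre-processed nuclei had no class name. In the post-processed library 57 nuclei were oligodendrocyte-like, 178 microglia-like, 29 endothelial-like and 2 astrocyte-like, 228 had no class name, and 0 fell in a neuronal or precursor-like cluster. Levels are given as counts per 1000000 UMIs (CPM), summed over the nuclei of a class. The denominator covers the listed genes only, and levels of different genes are not compared with each other because the values are not scaled to gene length.

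SCN1A, SCN2A and SCN8A were high in both kinds of neuron, whereas SCN9A was low everywhere and higher in interneuron-like than in excitatory-like nuclei. SCN1A reached 744 CPM (interval 723 to 766, from 4527 UMIs) in excitatory-like nuclei. It reached 699 CPM (651 to 749) in interneuron-like nuclei. The log2 ratio of interneuron-like over excitatory-like nuclei was -0.09 (interval -0.20 to 0.02), so the 2 classes did not differ in SCN1A beyond counting error. SCN2A stood at 625 CPM (605 to 645) in excitatory-like nuclei and at 567 CPM (525 to 612) in interneuron-like nuclei, a log2 ratio of -0.14 (-0.26 to -0.02). That difference was small, although its interval does not reach 0. SCN8A showed a wider gap, with 629 CPM (609 to 649) in excitatory-like and 434 CPM (397 to 474) in interneuron-like nuclei, a log2 ratio of -0.53 (-0.67 to -0.40).

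SCN9A was the exception in this comparison. Its 57 UMIs in excitatory-like nuclei gave 9.37 CPM (7.10 to 12.1), and its 57 UMIs in interneuron-like nuclei gave 49.3 CPM (37.3 to 63.9). The ratio was 5.26-fold, or 2.39 on the log2 scale (1.84 to 2.95). SCN9A was the single member of the 4 that was at least 2-fold higher in interneuron-like nuclei, where 8.03% of 6821 genes were, and 0 members were at least 2-fold lower, where 11.4% of genes were. Clusters 11 and 12 were the excitatory-like clusters with none of their class markers among their 10 leading genes. Without them the excitatory-like sum held 20 SCN9A UMIs and the log2 ratio was 3.55. They held 28 and 9 of the 57 UMIs, and leaving them out was chosen after seeing the data. Over 11 settings the log2 ratio ran from 2.05 to 3.55. The cells behind the SCN9A UMIs were few. In interneuron-like nuclei 18.8% had a SCN9A UMI at a median depth of 5953 UMIs, against 4.74% of excitatory-like nuclei at a median of 4885, and 0 of 360 astrocyte-like nuclei at a median of 2594, which allows a share of nuclei with a UMI of up to 0.833%, taking 3 counts as the floor.

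**Figure D1:**
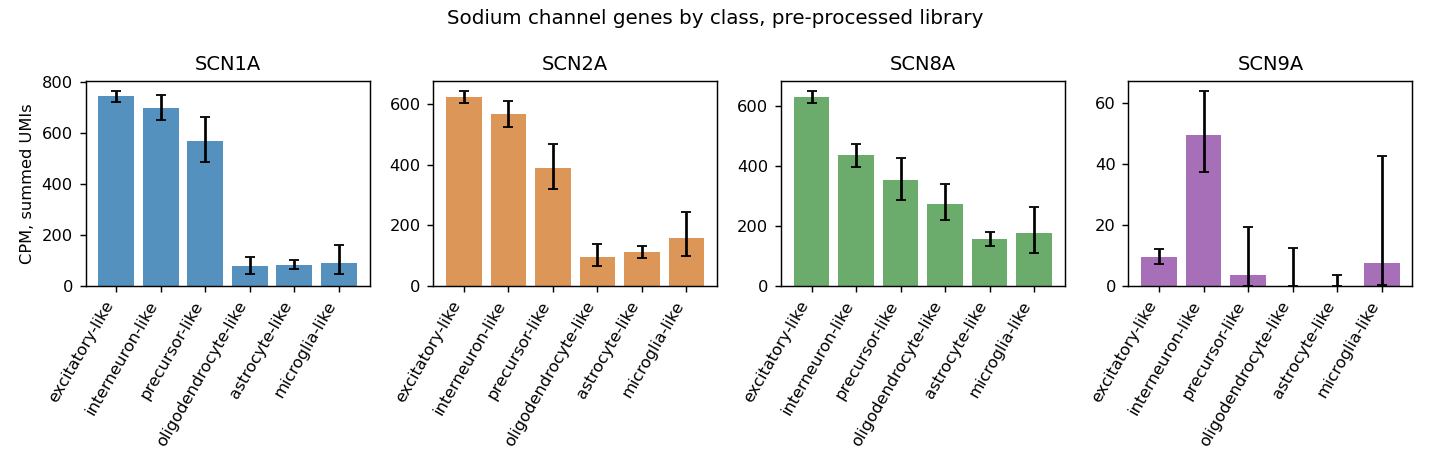
Bars show the summed level in CPM of each measured sodium channel gene in 6 classes of the pre-processed library, and error bars are exact 95% Poisson intervals. SCN1A, SCN2A and SCN8A are highest in both neuronal classes with the precursor-like nuclei next, and SCN9A stands out in interneuron-like nuclei at 49.3 CPM. Each panel has its own axis.

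Interneuron-like nuclei came from 2 clusters, and for all 4 members the interval of the log2 ratio between them excludes 0. Cluster 8 held 100 nuclei with RELN and VIP, markers of interneurons that in mouse arise from the caudal ganglionic eminence. Cluster 9 held 91 nuclei with SST and LHX6, markers of interneurons that in mouse arise from the medial ganglionic eminence. SCN1A reached 898 CPM (821 to 980) in the SST and LHX6 cluster and 511 CPM (456 to 572) in the RELN and VIP cluster, a log2 ratio of 0.81 (0.60 to 1.02). Its level in excitatory-like nuclei lay between these values. SCN8A followed the same order, with 546 CPM (487 to 611) against 329 CPM (284 to 378), a log2 ratio of 0.73 (0.47 to 1.0). SCN2A went the other way by a small amount, with 509 CPM (452 to 572) against 622 CPM (560 to 689), a log2 ratio of -0.29 (-0.52 to -0.06). SCN9A was also higher in the RELN and VIP cluster, at 65.4 CPM (46.5 to 89.4) against 32.1 CPM (19.1 to 50.8). Of the 4 members, 1 was at least 2-fold apart between these clusters, SCN9A at a log2 ratio of -1.0 (-1.92 to -0.18), where 14.7% of 4544 genes were.

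A finer clustering, at a resolution of 1.0 in place of 0.5, divided both interneuron clusters into 4 groups, 1 of which also took in 28 nuclei of the unnamed cluster 2. SCN1A had its highest value of any cluster in a group of 53 nuclei led by KCNC2, a fast-gating potassium channel gene, and NXPH1. There SCN1A reached 1110 CPM (1000 to 1229), SST had 0 UMIs, and PVALB, the marker of fast-spiking basket cells, had 14. In the SST-led group of 38 nuclei SCN1A was 581 CPM (485 to 689), an interval that does not meet the first. SCN9A had its highest value in 74 nuclei led by THSD7B and holding 75 VIP UMIs, at 86.2 CPM (59.0 to 122 from 32 UMIs). This was the group with the 28 added nuclei, which held 0 SCN9A UMIs, and in its other 46 nuclei SCN9A was 99.1 CPM (67.8 to 139.9). In the RELN-led group of 54 nuclei SCN9A was 25.6 CPM (10.3 to 52.7 from 7 UMIs). Those UMIs lay in 3 nuclei with 5 in 1 nucleus, so that level rests mostly on 1 nucleus. Among the 4 finer interneuron groups SCN9A was thus highest in the one with VIP.

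Among excitatory-like clusters, SCN1A varied more than SCN2A. Cluster 10, with 66 nuclei marked by FOXP2 and SYT6, which in mouse mark corticothalamic neurons of layer 6, held 385 CPM of SCN1A (326 to 453). The other excitatory-like nuclei together held 769 CPM, and the log2 ratio was -0.99 (-1.24 to -0.76). SCN2A and SCN8A in cluster 10 did not follow, with log2 ratios of 0.18 (-0.01 to 0.35) and 0.05 (-0.14 to 0.23). With SCN9A, of which cluster 10 had 1 UMI, 1 of the 4 members was at least 2-fold apart, at a fitted ratio that rests on that UMI (2.59 CPM against 9.83 CPM, log2 interval -7.26 to 0.61), where 19.8% of 6595 genes were. The SCN1A ratio fell just inside the 2-fold limit.

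Cluster 11, 51 nuclei led by LAMB1, and cluster 12, 44 nuclei led by NTNG1, were the deepest clusters, with medians of 13023 and 11715.5 UMIs. SCN9A in cluster 11 was 38.2 CPM (25.4 to 55.2 from 28 UMIs) against 5.42 CPM over the other excitatory-like nuclei, a log2 ratio of 2.82 (2.01 to 3.62). These 28 were out of 57 excitatory-like SCN9A UMIs. SCN9A was the single member at least 2-fold higher in cluster 11, where 6.14% of 6595 genes were. The SST and LHX6 interneuron cluster held 32.1 CPM of SCN9A (19.1 to 50.8), an interval that overlaps that of cluster 11. The 19 listed interneuron markers summed to 1578 CPM in cluster 11 with 7 of them at 0, against 2555 CPM in cluster 0, 486 excitatory-like nuclei, and 39275 CPM in the RELN and VIP cluster. Single interneuron markers were higher in cluster 11 than in cluster 0, among them RELN at 124 CPM against 7.32 CPM and NXPH1 at 166 CPM against 70.0 CPM. In cluster 12 SCN8A had its highest value, 710 CPM (640 to 785), and SCN1A was 579 CPM (516 to 647). SCN2A was 536 CPM (476 to 602) there, a log2 ratio of -0.24 (-0.42 to -0.07) over the other excitatory-like nuclei.

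**Figure D2:**
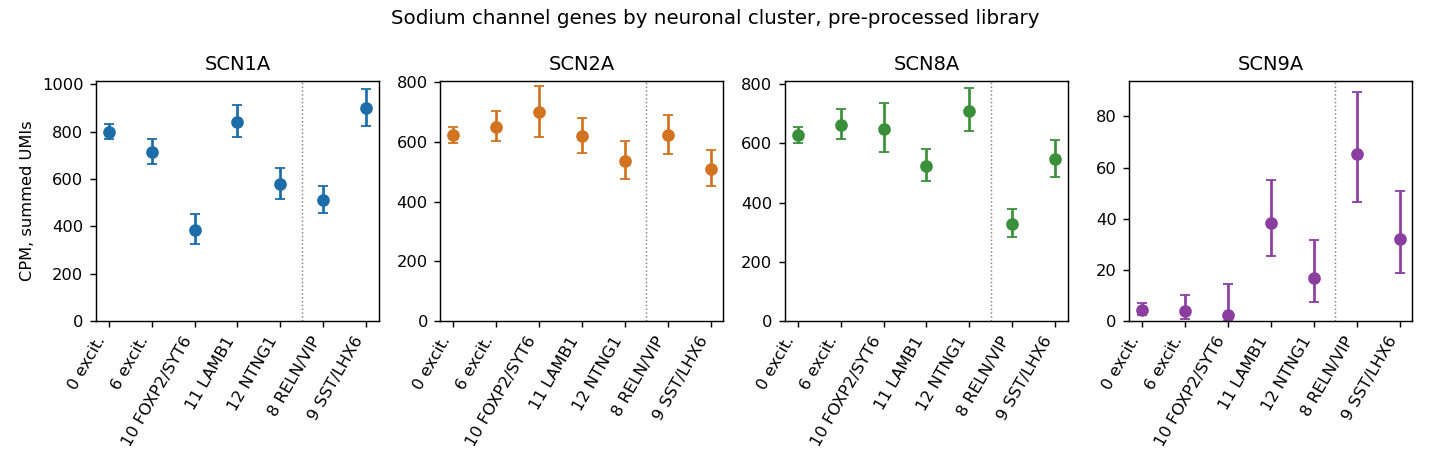
Points show the summed level in CPM of each gene in the 7 named neuronal clusters of the pre-processed library, with exact 95% Poisson intervals, and the dotted line separates excitatory-like clusters on its left from interneuron-like clusters on its right. SCN1A ranges from 385 CPM in the FOXP2 and SYT6 cluster to 898 CPM in the SST and LHX6 cluster, SCN2A from 509 to 698 CPM. Each panel has its own axis.

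The balance between 2 members within the same nuclei does not depend on how depth is scaled. There were 1.19 SCN1A UMIs per SCN2A UMI in excitatory-like nuclei (1.14 to 1.24). This ratio was 0.552 (0.449 to 0.677) in the FOXP2 and SYT6 cluster, 0.822 (0.704 to 0.959) in the RELN and VIP cluster and 1.76 (1.52 to 2.05) in the SST and LHX6 cluster. SCN8A had 1.01 UMIs per SCN2A UMI in excitatory-like nuclei (0.962 to 1.05) and 0.528 (0.442 to 0.630) in the RELN and VIP cluster. The balance of the members thus shifted between neuronal types by more than counting error.

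In single nuclei, excitatory-like nuclei had a median of 4 SCN1A UMIs, 3 SCN2A UMIs and 3 SCN8A UMIs. The highest nucleus held 45 of SCN1A, 27 of SCN2A and 38 of SCN8A. A nucleus without a SCN1A UMI was uncommon, with 92 of 865 excitatory-like and 26 of 191 interneuron-like nuclei. Reduced to 900 UMIs each, 49.4% of excitatory-like nuclei (46.0 to 52.7) and 44.2% of interneuron-like nuclei (36.8 to 51.3) would keep a SCN1A UMI, against 89.4% and 86.4% at full depth. No pre-processed nucleus was left out by this thinning.

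Outside neurons, the highest levels of SCN1A and SCN2A were in oligodendrocyte precursor-like nuclei, the dividing glial cells marked by PDGFRA that in rodents carry sodium currents and receive synapses. SCN1A was 570 CPM (486 to 664) in precursor-like nuclei and 76.8 CPM (48.7 to 115) in oligodendrocyte-like nuclei, a log2 ratio of 2.86 (2.26 to 3.59). SCN2A was 389 CPM (321 to 469) against 96.9 CPM (64.9 to 139), a log2 ratio of 1.99 (1.41 to 2.65). SCN8A did not separate these classes beyond counting error, at 351 CPM (286 to 427) against 274 CPM (218 to 340), a log2 ratio of 0.36 (-0.08 to 0.80). Of the 3 members with at least 20 UMIs here, 2 were at least 2-fold higher in precursor-like nuclei, where 18.8% of 3726 genes were.

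The 3 abundant members stood closer to their excitatory-like level in precursor-like nuclei than 5 neuronal reference genes did, although some other neuronal genes stood as close. SCN1A in precursor-like nuclei was 76.6% (65.1 to 89.5) of its excitatory-like level, SCN2A 62.3% (51.2 to 75.2) and SCN8A 55.8% (45.4 to 68.0). The synaptic vesicle gene SYT1 stood at 12.2% (10.9 to 13.6) and the potassium channel-interacting gene KCNIP4 at 8.27% (7.59 to 9.0). The receptor subunit gene GRIN1, the growth-associated gene STMN2 and the kinase gene CAMK2A stood at 18.9%, 16.8% and 29.7%. All 3 members lay above all 5 of these reference genes. Unlike the members, these 5 genes stayed in the clustering, and classes were named from neuronal and glial marker lists. The part of this in the contrast was not tested. Among genes of channel partners, FGF12 had 365 CPM in precursor-like against 451 CPM in excitatory-like nuclei, CNTNAP2 5041 against 7152 CPM, and NRCAM 2952 against 2378 CPM. Others stood further away, among them KCNQ5 at 424 against 4246 CPM and KCNQ3 at 518 against 1327 CPM. Of 15 partner genes, 4 were at least 2-fold higher in neurons than in precursor-like nuclei and 1 at least 2-fold lower. Their median log2 ratio was 0.77. SCN9A stood at 37.1% of its excitatory-like level (0.923 to 215) from 1 UMI. SCN1A UMIs were spread over the class: 68.8% of the 109 nuclei had one, the highest nucleus had 10, and at 900 UMIs the share would be 40.4% (31.1 to 50.2). Against all neurons, 1 of 4 members was at least 2-fold higher in neurons than in precursor-like nuclei, where 17.2% of 6922 genes were, and that member was SCN9A with 1 precursor-like UMI, a 3.03-fold ratio with a log2 interval of -0.33 to 7.50 that turned to -0.45 on the log2 scale when nuclei were classed by marker UMIs alone.

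Against oligodendrocyte-like nuclei, neurons were higher by 3.23 on the log2 scale for SCN1A (2.67 to 3.92), by 2.64 for SCN2A (2.14 to 3.25) and by 1.12 for SCN8A (0.81 to 1.46). SCN9A had 0 UMIs in oligodendrocyte-like nuclei and was 1.57-fold lower there, taking 3 counts over the class as the floor. The exact interval of its log2 ratio runs from 0.33 upwards. All 4 members passed 2-fold by the fitted ratio, where 27.2% of 6909 genes were, SCN9A with a value set by the 0.5 counts added, and 3 passed with SCN9A at that floor. Against astrocyte-like nuclei the log2 ratios were 3.15 (2.85 to 3.47) for SCN1A, 2.46 (2.21 to 2.75) for SCN2A and 1.94 (1.72 to 2.18) for SCN8A. SCN9A, with 0 astrocyte-like UMIs, was 5.58-fold lower there with the same floor, and its log2 interval runs from 2.16 upwards. Again 4 of 4 members passed 2-fold, where 19.3% of 7133 genes were. Against microglia-like nuclei 3 of 4 members were at least 2-fold higher in neurons, where 19.1% of 6919 genes were, with log2 ratios from 1.74 for SCN8A to 2.95 for SCN1A. The median log2 ratio of all genes was -0.32 against astrocyte-like, -0.20 against precursor-like, -0.11 against oligodendrocyte-like and -0.44 against microglia-like nuclei, so relative to the median gene the members were slightly higher still. When nuclei were classed by marker UMIs alone without clustering, SCN1A was still higher in neurons but the log2 ratio was 0.61 over astrocyte-like and 1.23 over oligodendrocyte-like nuclei, and 0 of 4 members passed 2-fold over astrocyte-like nuclei.

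Low glial levels were set beside the share of nuclei with a UMI in microglia-like nuclei. Those had a SCN2A UMI in 18.8% of 85 nuclei at a median of 1291 UMIs. Oligodendrocyte-like nuclei had one in 11.7% at a median of 1487, and astrocyte-like nuclei in 23.6% at a median of 2594. At 900 UMIs per nucleus the SCN2A shares were 12.6% (6.64 to 22.0) in microglia-like, 7.61% (4.32 to 12.7) in oligodendrocyte-like and 9.75% (6.87 to 13.3) in astrocyte-like nuclei, with overlapping intervals. The SCN1A shares at 900 UMIs were 8.63%, 6.85% and 7.25% in the same order. For SCN8A the oligodendrocyte-like share was the highest of the 3: at 900 UMIs it was found in 21.8% of oligodendrocyte-like nuclei (15.9 to 28.4), against 12.6% of astrocyte-like nuclei (9.27 to 16.4) and 11.1% of microglia-like nuclei (4.96 to 19.2). In summed counts the SCN8A log2 ratio of oligodendrocyte-like over astrocyte-like nuclei was 0.82 (0.42 to 1.21). Over microglia-like nuclei it was 0.62 (-0.04 to 1.38), whose interval reaches 0. Of the 23 microglia-like SCN8A UMIs, 16 were in 27 nuclei that the finer clustering set apart under DMP1, EHD4 and ERMN. The other 58 microglia-like nuclei held 98.3 CPM (39.5 to 202.6 from 7 UMIs). Oligodendrocyte-like nuclei of the finer clustering held 262.7 CPM (207.7 to 327.9), an interval that does not overlap.

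SCN8A stood apart from the other members in oligodendrocyte-like nuclei. It kept 43.6% (34.6 to 54.2) of its excitatory-like level there, against 10.3% (6.54 to 15.5) for SCN1A and 15.5% (10.4 to 22.3) for SCN2A. SYT1, KCNIP4, GRIN1 and STMN2 lay between 5.85% and 12.9% in the same nuclei, and CAMK2A was as high as SCN8A at 42.7%. These reference genes, unlike the members, stayed in the clustering. There were 2.83 SCN8A UMIs per SCN2A UMI in oligodendrocyte-like nuclei (1.83 to 4.48), against 1.40 (1.10 to 1.79) in astrocyte-like nuclei and 1.10 (0.580 to 2.08) in microglia-like nuclei. The 82 SCN8A UMIs lay in 62 of 180 nuclei with at most 4 in 1 nucleus.

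**Figure D3:**
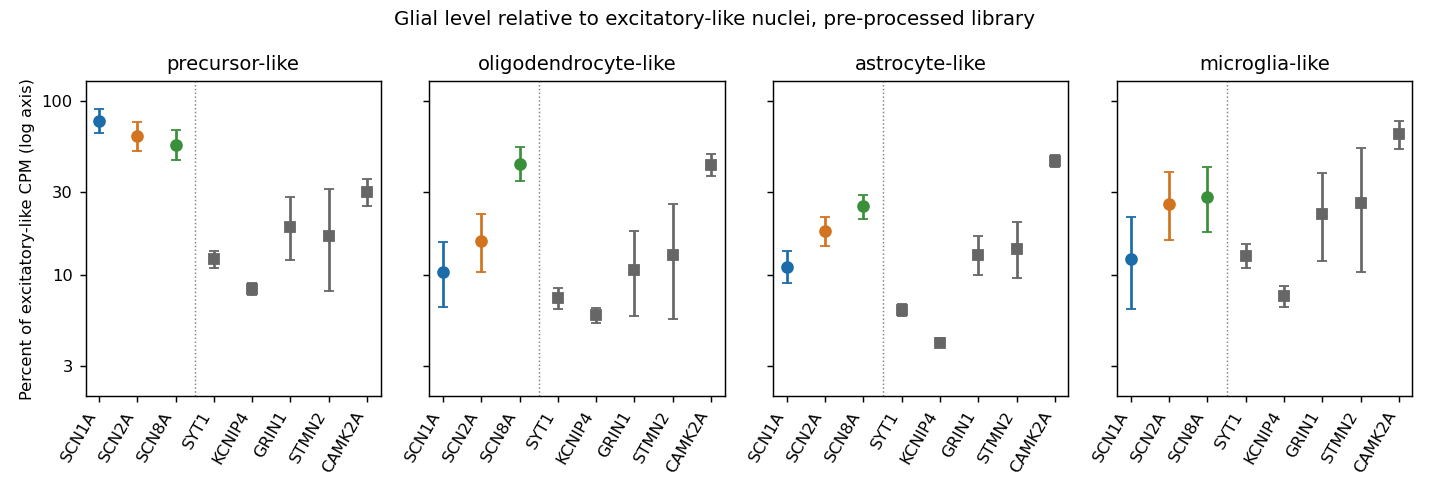
Each point is the level of a gene in a glial class as a percentage of its excitatory-like level in the pre-processed library, on a log axis with exact 95% intervals. Circles are SCN1A, SCN2A and SCN8A, and squares are 5 neuronal reference genes, which unlike the members stayed in the clustering. In precursor-like nuclei the 3 members lie at 55.8% to 76.6%, above all squares, and in oligodendrocyte-like nuclei SCN8A at 43.6% lies above the other 2 members.

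Between libraries, every measured member was lower after debris and red cell removal when all nuclei were summed. SCN1A had 6046 UMIs, 631 CPM, in the pre-processed library and 13 UMIs, 17.0 CPM, in the post-processed library, a log2 ratio of -5.16 (-6.13 to -4.44). SCN2A had 5064 and 6 UMIs, a log2 ratio of -5.96 (-7.52 to -4.95). SCN8A had 5001 and 90 UMIs, a log2 ratio of -2.14 (-2.47 to -1.85), and SCN9A had 128 and 1, a log2 ratio of -2.77 (-8.67 to -0.85). All 4 members were at least 2-fold lower, where 24.7% of 7615 genes were. The median gene had a log2 ratio of 0.33. The post-processed library had 0 nuclei in neuronal clusters, and over whole libraries fewer cells of a type and less RNA per cell cannot be told apart. The SCN8A ratio was closer to 0 than those of SCN1A and SCN2A, with intervals that do not overlap theirs.

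The remaining SCN8A UMIs lay mostly in 1 class. Of the 90 in post-processed nuclei, 54 were in the 57 oligodendrocyte-like nuclei, a level of 388 CPM (291 to 506), and 29 were in the 178 microglia-like nuclei, a level of 58.8 CPM (39.4 to 84.4). The log2 ratio of post-processed oligodendrocyte-like over microglia-like nuclei was 2.71 (2.05 to 3.43), making SCN8A, the single member with at least 20 UMIs here, at least 2-fold higher, where 14.4% of 3904 genes were. The 54 UMIs were spread over 21 nuclei with at most 5 in 1 nucleus. Of the 29 UMIs in microglia-like nuclei, 24 were in the 27 nuclei that the finer clustering set apart under the leading genes DMP1, EHD4 and ERMN, the last of these an oligodendrocyte marker. In the other 151 microglia-like nuclei SCN8A was at 15.7 CPM (5.11 to 36.7).

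Within oligodendrocyte-like nuclei the members parted between the libraries. SCN8A was 274 CPM (218 to 340) before and 388 CPM (291 to 506) after removal, a log2 ratio of 0.51 (-0.02 to 1.02) whose interval reaches 0, and it was -0.18 when nuclei were classed by marker UMIs alone. SCN2A was down from 29 UMIs to 0, which is 4.5-fold lower taking 3 counts as the floor. The exact interval of its log2 ratio reaches up to -1.78. For SCN1A the 23 UMIs before and 5 UMIs after gave a log2 ratio of -0.99 (-2.85 to 0.33), which was -1.50 without the nucleus with most UMIs. Of the 3 members with at least 20 UMIs, 1 was at least 2-fold lower, where 13.5% of 2951 genes were. Neuronal reference genes were also lower: SYT1 was 695 CPM before and 101 CPM after, and KCNIP4 was 1336 CPM before and 28.7 CPM after. The 7 listed pan-neuronal markers summed to 1764 CPM with 0 at 0 before, and to 295 CPM with 3 at 0 after. Their part in the levels of the members was not tested.

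Within microglia-like nuclei all 3 abundant members were lower after removal. The log2 ratios were -2.85 (-4.61 to -1.38) for SCN1A, from 12 UMIs before and 6 after, and -3.64 (-5.32 to -2.36) for SCN2A, from 21 and 6. SCN8A, with 23 and 29 UMIs, had a log2 ratio of -1.58 (-2.41 to -0.72). Both members with at least 20 UMIs, SCN2A and SCN8A, were at least 2-fold lower, where 12.3% of 4029 genes were. Without the DMP1, EHD4 and ERMN nuclei the SCN8A log2 ratio was -2.61, from 7 and 5 UMIs, and without the 5% of nuclei with most UMIs it was -4.03, from 7 and 1. The pan-neuronal markers summed to 3875 CPM before with 0 of 7 at 0, and to 2118 CPM after with 3 at 0, and SYT1 was 1218 CPM before and 46.6 CPM after.

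**Figure D4:**
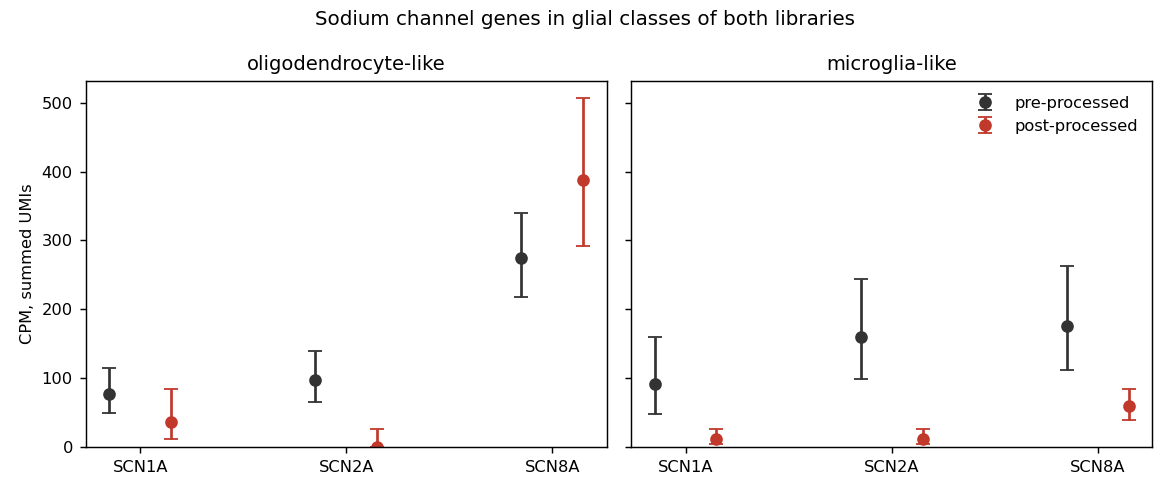
Points show the summed level in CPM of SCN1A, SCN2A and SCN8A in oligodendrocyte-like nuclei on the left and microglia-like nuclei on the right, dark for the pre-processed and red for the post-processed library, with exact 95% Poisson intervals. Among the 6 pairs, only SCN8A in oligodendrocyte-like nuclei has a higher post-processed value, 388 against 274 CPM, and its intervals overlap.

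The partners that hold or regulate the channels were read from a list of axon initial segment, node and channel-binding genes, of which 15 of 32 were listed in the matrices. ANK3, which encodes ankyrin-G, was not analysed here. Between interneuron-like and excitatory-like nuclei, 3 of the 15 were at least 2-fold higher, where 8.03% of 6821 genes were, and 3 at least 2-fold lower, where 11.4% were. The median log2 ratio of the list was -0.13, against 0.00 over all genes. KCNC2 differed most, with 4392 CPM in interneuron-like and 179 CPM in excitatory-like nuclei, a log2 ratio of 4.62 (4.52 to 4.71). CNTNAP2, which encodes a potassium channel-clustering adhesion protein, had a log2 ratio of 1.61, and FGF12, whose product binds the channel tail, 1.02. KCNQ5, a subunit of the slow M-type potassium channel, was lower by a log2 ratio of -2.93, NRCAM, a node adhesion gene, by -1.15, and CALM2, a calmodulin gene, by -1.70.

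Against oligodendrocyte-like nuclei, 9 of the 15 partner genes were at least 2-fold higher in neurons, where 27.2% of 6909 genes were, and 1 was at least 2-fold lower, where 23.8% of genes were, with a list median of 1.80 against -0.11 over all genes. KCNA1, a potassium channel gene of the region beside nodes, was the one that was higher in oligodendrocyte-like nuclei, at 478 CPM against 186 CPM in neurons, a log2 ratio of -1.36 (-1.61 to -1.10). The adhesion gene CNTN1 had 2636 CPM against 2312 CPM and the ankyrin gene ANK2 2456 CPM against 3426 CPM. After removal, KCNA1 had 409 CPM, CNTN1 2378 CPM and ANK2 2838 CPM in oligodendrocyte-like nuclei, and their log2 ratios between libraries were -0.22 (-0.69 to 0.23), -0.15 (-0.34 to 0.04) and 0.21 (0.03 to 0.39). NRCAM went from 65 UMIs to 0, which makes it at least 10.1-fold lower.

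Of the other alpha subunit genes, SCN7A was listed and had 2 UMIs in pre-processed nuclei. ATP1B3, a subunit gene of the sodium pump that restores the gradient, was within 2-fold between interneuron-like and excitatory-like nuclei, with a log2 ratio of -0.51. Beside the channel cluster on chromosome 2, CSRNP3, a transcription regulator gene next to SCN2A, had 565 CPM in excitatory-like nuclei and 50.1 CPM in oligodendrocyte-like nuclei. TTC21B, a cilium gene between SCN1A and SCN2A, did not share the neuronal level and was lower in neurons than in oligodendrocyte-like nuclei by a log2 ratio of -1.04 (-1.36 to -0.68). The genes of the chromosomal cluster thus did not all share 1 pattern.

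Over the 12 pre-processed clusters with at least 20 nuclei, SCN1A and SCN2A followed each other at a Pearson correlation of 0.934 on log2(CPM + 10) values. SCN8A followed SCN1A at 0.845 and SCN2A at 0.858, and SCN9A followed SCN1A at 0.548, SCN2A at 0.528 and SCN8A at 0.262. These correlations describe clusters of 1 library and were not tested. Among 2781 genes with at least 500 UMIs, those closest to SCN1A included DNM1, SNTG1, FRRS1L and CSMD3. Those closest to SCN2A were RIMS1 (correlation 0.982), MYT1L, CSRNP3 (0.980), CACNA1C and CELF5. For SCN8A they were MAB21L3 (0.957), KCNH7, MYO5A, SLC4A10 and GFRA2, and for SCN9A RELN (0.882), THSD4, NIPAL3, ZNF618 and EPHA3. In the finer clustering, SCN9A was 25.6 CPM in the RELN-led group and 86.2 CPM in the group with VIP. The RELN-led value came from 7 UMIs in 3 nuclei, with 5 in 1 nucleus.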

How the data were processed

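Nuclear RNA of 2 sheep cortex libraries was sequenced on a droplet platform. Per the labels, nuclei were taken with an Illumina kit, and per the submitters' processing notes the reads went through DRAGEN. Neither version, genome build, annotation nor barcode-calling rule was given in the sources used here. The deposited matrices hold whole-number UMI counts per gene and barcode with no normalization. They list 13765 features. The study states about 5000 nuclei per condition.

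Barcodes with at least 100 genes were kept, and no doublets were removed (without the 5% of nuclei with most UMIs is an alternative). Seurat 5.3.0 under R 4.3.3 clustered both libraries together without the sodium channel genes and without integration (log-normalization to 10000, 2000 variable genes, 30 components, resolution 0.5). A cluster was named from the best mean log2 score of a marker list against the 25th percentile of the other clusters, with at least 3 markers raised 1.5-fold. It stayed unnamed if shallow, if pan-neuronal markers scored as high in a glial cluster, or if another class led its 10 leading genes. That rule was written after the clusters were seen. The members and lists were chosen with earlier results of these data known.

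Counts were summed per class in Python 3.11.15 with scipy 1.17.1. Levels carry exact Poisson, ratios exact conditional binomial and shares Clopper-Pearson intervals, all at 95%. Ratios used 0.5 added counts, a minimum of 20 UMIs over both sides, and 2-fold as the limit, read beside the share of all genes past it. Thinned shares are expected values for 900 UMIs per nucleus. The text names the members, pathway genes with at least 20 UMIs (those past 2-fold first), and the 5 genes closest to each member. Some genes that this rule names are not reported here. The ratio step was tested on simulated counts. LOC101103874, listed beside SCN2A, was added after values were seen.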

Additional observations from a re-analysis of the deposited data

Results flagged for a closer look

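SCN8A moved in opposite directions between libraries in the 2 glial classes that both libraries held. Its post-processed over pre-processed log2 ratio was 0.51 in oligodendrocyte-like nuclei and -1.58 in microglia-like nuclei. The difference between these ratios was not tested, since each class has 1 library per condition, and the oligodendrocyte-like interval reaches 0. With nuclei classed by marker UMIs alone the oligodendrocyte-like ratio was -0.18, the same direction as in microglia-like nuclei.

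An unnamed gene outside the member set, LOC101103874, carried a neuronal signal of similar shape. It lies between the coding genes SCN2A and SLC38A11 on chromosome 2 in the RefSeq gene table. It had 2603 UMIs in pre-processed nuclei and 3 in post-processed nuclei. Its level was 307 CPM (294 to 322) in excitatory-like, 344 CPM (311 to 380) in interneuron-like, 309 CPM (249 to 381) in precursor-like and 50.1 CPM (28.1 to 82.7) in oligodendrocyte-like nuclei. In precursor-like nuclei it was at 101% of its excitatory-like level, and over clusters it followed SCN2A at a correlation of 0.963. No name or function is given to it here. Whether it is the sheep SCN3A, whose symbol was not found, was not tested. It was not among the genes removed before clustering.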

How the results depend on the processing

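No paired analysis was possible because each condition has 1 library and the titles carry no replicate numbers, and no replicate could be left out for the same reason. Of 332 log2 ratios of members recomputed under alternatives, 297 stayed inside the interval of the reported value, 32 left it and 3, all of SCN9A, reversed the sign of a value past 2-fold. Under a minimum of 100 UMIs and under no minimum, 31 ratios each equal the reported ones by construction. A minimum of UMIs changes only which members are counted. With nuclei classed by marker UMIs alone, 13 ratios stayed inside the interval, 13 left it and 1 reversed. Without clusters 11 and 12, without the nucleus with most UMIs and without the DMP1, EHD4 and ERMN nuclei are alternatives chosen after seeing the data. Classing nuclei by marker UMIs alone left 0 members at least 2-fold higher in neurons than in astrocyte-like or precursor-like nuclei and 2 against oligodendrocyte-like nuclei, with 23.9%, 23.5% and 31.7% of all genes at least 2-fold apart, and gave 2 members lower after removal in oligodendrocyte-like nuclei, with 31.9% of genes apart, and the SCN9A ratio of neurons over precursor-like nuclei reversed to -0.45. The cause was not tested. In oligodendrocyte-like nuclei between libraries, 2 members were at least 2-fold lower at resolution 1.0, with at least 500 genes and with the mean of per-nucleus CPM, since SCN1A lay at the limit. A minimum of 100 UMIs left 0 members there and 0 in microglia-like nuclei, with 6.13% and 12.8% of genes apart, and no minimum gave 4 members in microglia-like nuclei, with 35.6% of genes apart there and 39.6% in oligodendrocyte-like nuclei. In microglia-like nuclei 0 members were counted at resolution 1.0, without the 5% of nuclei with most UMIs and without the DMP1, EHD4 and ERMN nuclei, because 0 members then had 20 UMIs. With 5 counts added, 0 members passed in neurons over precursor-like nuclei, where the SCN9A ratio reversed to -0.34, 1 was lower in neurons than in microglia-like nuclei, 10.6% of genes were apart between libraries in oligodendrocyte-like nuclei, and the SCN9A ratio of neurons over oligodendrocyte-like nuclei reversed to -0.023, as adding 5 counts outweighs a class with 0 or 1 UMI. Glial SCN9A levels, at 0 or 1 UMI per class, and SCN1A and SCN2A levels in the post-processed library, at 13 and 6 UMIs, are limited by depth.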

Other observations

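The 326 pre-processed nuclei of cluster 2 had no class name because pan-neuronal markers scored as high there as the astrocyte markers closest to the cluster. S100B and MLC1, known from astrocytes, and NEFL and DDN, known from neurons, were among their leading genes. Their sodium channel levels were neuronal: SCN1A was 776 CPM (704 to 854), SCN2A 602 CPM (539 to 671) and SCN8A 556 CPM (495 to 622), at a median depth of 1254 UMIs. SCN9A had 12 UMIs there, 22.0 CPM (11.4 to 38.5). Counting these nuclei with either class was not done.

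In the 228 post-processed nuclei of cluster 5, which had a median of 232.5 UMIs and no class name, SCN1A had 1 UMI, SCN2A had 0 and SCN8A had 3. The 29 post-processed endothelial-like nuclei held 1 SCN1A UMI and 1 SCN8A UMI. Of the 411 post-processed barcodes under 100 genes, all together held 1 SCN1A UMI and 2 SCN8A UMIs among 28995.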
